A study of Mus musculus with 223 samples.

Results

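The genes Cxadr, Tspan6, Kars and Sgta were followed from late gestation into the first postnatal week in single interneurons (INs) of the mouse cortex. They are 4 of the 43629 genes counted in each cell. They were chosen by their fall in pooled RPM from E18 to a P5 type: Cxadr and Tspan6 for type 1, Kars and Sgta for type 3. RPM is the count of read pairs on a gene times the deposited coefficient of the cell, so that it is a level per 1000000 mapped read pairs. The values of those 4 falls are therefore a description of how the genes were picked, with no test.

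Each cell was a GFP+ cell of the whole cortex of an Htr3a-GFP mouse, in which GFP is driven by regulatory sequences of Htr3a, a serotonin receptor gene, so every group holds only cells in which that transgene was on. The groups were E18 (embryonic day 18, 82 cells), P2 (postnatal day 2) type 1 (22 cells), type 2 (31 cells) and type 3 (13 cells), and P5 (postnatal day 5) type 1 (34 cells), type 2 (19 cells) and type 3 (22 cells). No agent or further allele is named for any group, and E18 cells carry no type in the labels. Each age was pooled embryos or pups, and no cell is tied to an animal, so a group counts as 1 sample, cells are not replicates and no test was made. E18 and P5 cells were captured on 2 chips each and P2 cells on 1, and which cell was on which chip is not given in the sources used here. The P2 cells all came from library set A, while E18 and P5 cells came from sets B, C and D, a set being the first number of the library name, whose meaning is not stated. At P2 the set and the age cannot be told apart. The methods also give another temperature and medium of dissociation for P5 than for E18 and P2, so dissociation and age cannot be told apart either.

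CXADR is the coxsackievirus and adenovirus receptor, an immunoglobulin-fold adhesion protein of cell contacts that is abundant in the developing brain and lower in the adult. TSPAN6 is a tetraspanin, one of the small membrane proteins that span the membrane several times and organise other membrane proteins in domains and vesicles. KARS, lysyl-tRNA synthetase, loads lysine on its tRNA and is a core part of the multi-synthetase complex, and 1 gene serves both the cytosol and the mitochondrion. SGTA is a co-chaperone with tetratricopeptide repeats that catches the membrane anchor of tail-anchored proteins and passes them to the BAG6 and GET machinery.

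On GRCm38, Cxadr (ENSMUSG00000022865) lies at chr16:78301489-78359774 on the plus strand. Tspan6 (ENSMUSG00000067377) lies at chrX:133891068-133898429, Kars (ENSMUSG00000031948) at chr8:111993443-112011323 and Sgta (ENSMUSG00000004937) at chr10:81044075-81060181, all on the minus strand. All 4 are protein coding, and the values count read pairs over the exons of each gene. RefSeq promoter entries (GRCm38.p6) matched 3 of the 4 members. The 30 bases before the annotated start are shown so that the starts of genes picked for the same fall (Kars and Sgta) and for the other fall (Tspan6) can be set side by side, 5′ to 3′ on the strand of the gene with a matched motif in capitals.
Tspan6: agcctcctaagaatgaccctctagaaaatc
Kars: ccggccgagggcCCGCCCtctttcccggaa
Sgta: TGACGTCActtctgttttagagcgaagggt

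The windows are chrX:133898430-133898459, chr8:112011355-112011384 and chr10:81060272-81060301. The motifs searched on both strands were the GC box GGGCGG, the box CCAAT, the TATA box TATAAA, the E box CACGTG and the cyclic AMP response element TGACGTCA. A GC box read on the other strand lay at bases 18 to 13 before the start of Kars. Sgta held the cyclic AMP response element at bases 30 to 23, and no 2 of these matches overlapped. Over the 250 bases before these starts Sgta also held 2 E boxes and Kars a CCAAT box. In the same length, 32.7% of 32851 promoters held a GC box, 33.8% a CCAAT box, 12.4% a TATA box, 6.02% an E box and 1.55% TGACGTCA. Sgta held a GC box too, farther than 30 bases before this start and at bases 22 to 17 before a second annotated start, whose window is not shown. None of the 5 motifs matched within 250 bases for Tspan6, whose 250 bases were 36% G and C, against 64.4% for Kars and 54.8% for Sgta, and against a median of 52.4% over all entries. A match is a run of letters, and binding was not measured.

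The depth of a cell lay between 3707601 and 15840130 mapped read pairs (median 9463033), so that 1 read pair was worth 0.0631 to 0.270 RPM, far below the 10 RPM above which a gene is called expressed here. Levels are pooled RPM, the read pairs of all cells of a group over their mapped read pairs, with exact Poisson intervals, and shares of cells have exact Clopper-Pearson intervals. Both are 95% intervals and cover counting error only. The lowest cell was at 0 in every group for every one of the 4 genes, so only medians and highest cells are given below. Of 8 interneuron markers at least 1 was above 10 RPM in 79 of 82 E18 cells and in all 34, 19 and 22 cells of the P5 types. It was so in 21 of 22, 29 of 31 and 13 of 13 cells of P2 types 1, 2 and 3. One of the 8 is Htr3a, whose regulatory sequences drive the GFP used for sorting. The methods report reads on Dlx1, Dlx2, Dlx5, Dlx6, Gad1 or Gad2 in every kept cell, so these counts cannot test identity. P5 type 3 stood apart in its libraries: a median of 32.1% of mapped pairs lay on genes, against 58.6% at E18, 55.2% in P5 type 1, 55.5% in P5 type 2 and 44.4% in P2 type 3. P2 type 3 stood apart too, with the lowest median depth (6483871 mapped pairs), the fewest genes above 10 RPM (median 1437, against 1834 to 2738 in the other groups) and the highest mitochondrial share (median 1.46%, against 0.505% to 0.935%). Read pairs from E18 also held markers of INs of the medial ganglionic eminence (MGE), the other main source of cortical INs. At least 1 of 5 such markers was above 10 RPM in 71 of 82 E18 cells, in 10 of 34 P5 type 1 cells and in 1 of 22 P5 type 3 cells. The count was 7 of 19 cells in P5 type 2, and 4 of 22, 13 of 31 and 6 of 13 in P2 types 1, 2 and 3. By gene, the share of P5 type 1 cells above 10 RPM was 23.5% for Satb1 and 5.88% for Lhx6. It was 0% for Sst, Sox6 and Nkx2-1.

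**Figure D1:**
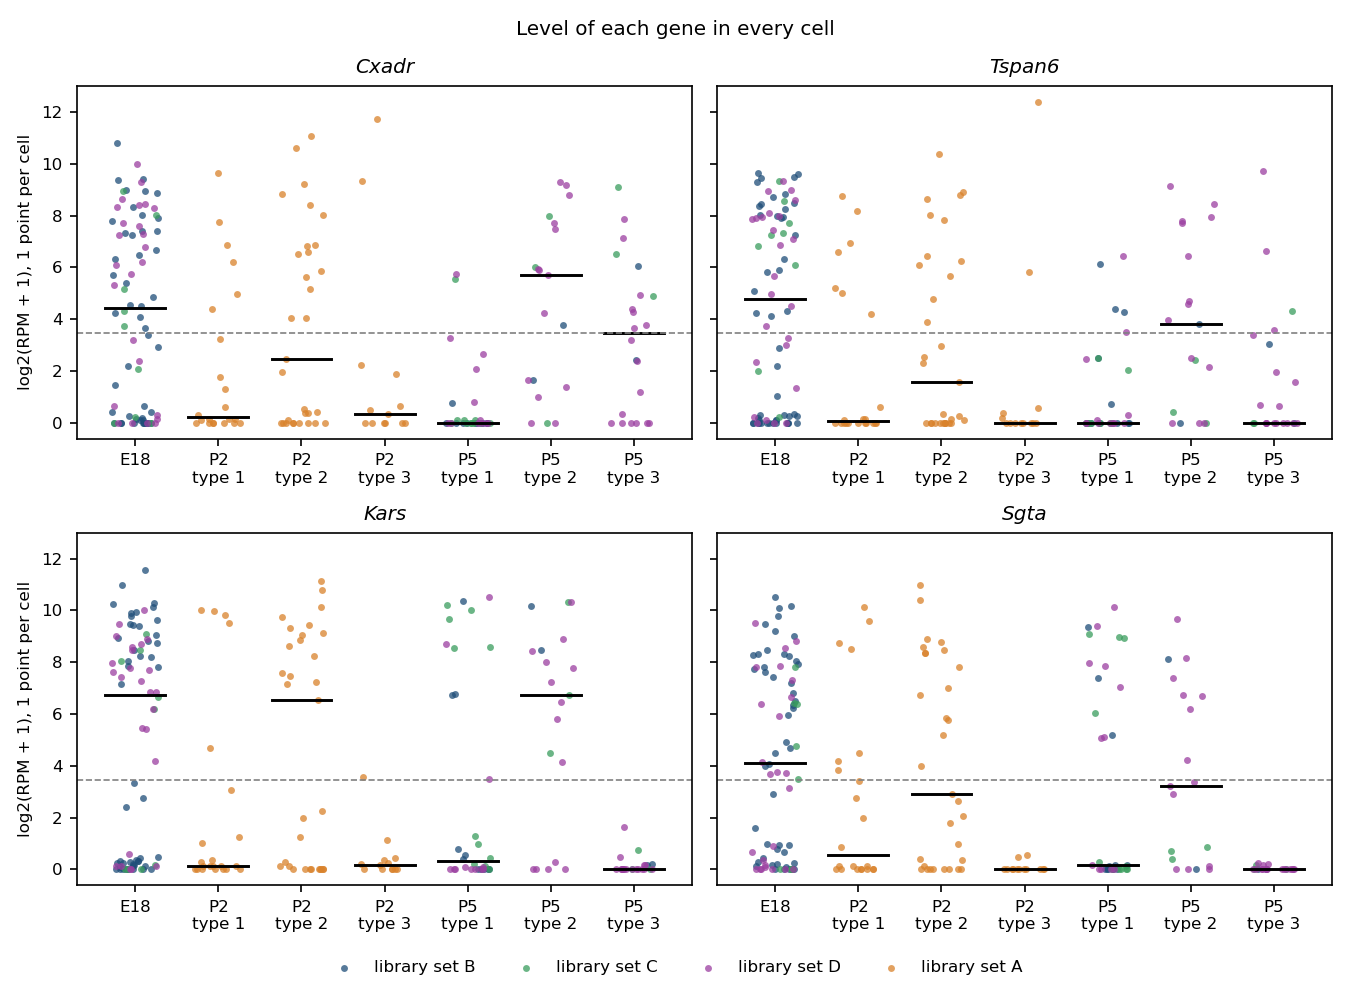
Level of each gene in every cell, as log2(RPM + 1), by group, with cells coloured by library set. The black bar is the median cell and the dashed line marks 10 RPM. In the type 3 columns of either age Sgta and Kars lie near 0, with 1 Kars cell at 11.0 RPM, and Cxadr and Tspan6 have few cells above the line in P5 type 1.

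Cxadr was expressed in most E18 cells and in few P5 type 1 cells. At E18 its pooled level was 141.3 RPM (95% interval 140.5 to 142.2), with a median cell of 20.3 RPM, a highest cell of 1791 RPM and 46 of 82 cells (56.1%, 44.7 to 67) above 10 RPM. In P5 type 1 the pooled level was 2.81 RPM (2.64 to 3.00), with a median cell at 0, and 2 of 34 cells (5.88%, 0.720 to 19.7) were above 10 RPM, at 52.4 and 46.2 RPM. Without the highest cell the level was 1.54 RPM. The log2 ratio of P5 type 1 to E18, with 1 RPM added to both sides, was -5.22.

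At P2 the type 1 cells stood between. Their pooled Cxadr level was 56.95 RPM, with a median cell of 0.164 RPM, and 6 of 22 cells (27.3%, 10.7 to 50.2) were above 10 RPM. A single cell at 794 RPM held 62% of those read pairs, and without it the level was 22.7 RPM. From P2 to P5 the pooled level in type 1 fell by 3.93 on the log2 scale. This step did not enter the choice of the gene, although its P5 cells did.

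Cxadr was found in the other types at both ages. In P5 type 2 the level was 122.4 RPM, with a median cell of 50.9 RPM, a highest cell of 622 RPM and 12 of 19 cells (63.2%, 38.4 to 83.7) above 10 RPM. In P5 type 3 it was 46.6 RPM, with a median cell of 9.91 RPM, a highest cell of 548 RPM and 11 of 22 cells (50%, 28.2 to 71.8) above 10 RPM, and without the highest cell 29.5 RPM. The 3 E18 sets ran from 96.3 to 163.8 RPM, a span that holds the P5 type 2 level and not that of P5 type 3. The log2 ratio of P5 type 3 to E18 was -1.58, but -0.80 with total counts on genes as the library size and 0.41 in cells with at least 40% of mapped pairs on genes, 3 of the 22 in P5 type 3, where the level was 182.004 RPM. P2 type 2 had 192.5 RPM, with a median cell of 4.54 RPM, a highest cell of 2155 RPM and 15 of 31 cells above 10 RPM. Without that cell it was 126.6 RPM, and the log2 ratio to E18 went from 0.44 to -0.16. P2 type 3 had 382 RPM, the highest pooled level of Cxadr, but a median cell of 0.270 RPM. There 2 of 13 cells, at 3432 and 648 RPM, were above 10 RPM, and without the highest the level was 55.95 RPM.

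Markers of astrocytes or radial glia, oligodendrocytes and excitatory neurons differed between these groups. The 7 glial markers summed to 50.2 RPM at E18 (14 of 82 cells with any above 10 RPM, 0 to 1308 RPM over cells), 258 RPM in P5 type 1 (15 of 34, 0 to 1392 RPM) and 1673 RPM in P5 type 2 (8 of 19, 0.163 to 16498 RPM). The median cell was at 1.77, 7.83 and 1.91 RPM in these groups. In P5 type 3 the sum was 76.7 RPM (3 of 22 cells), and in P2 types 1, 2 and 3 it was 110.98, 34.4 and 141.9 RPM (7 of 22, 7 of 31 and 3 of 13 cells). Of the 7, those above 10 RPM in the pool were 1 at E18, 3 in P5 type 1 and 6 in P5 type 2. Aldh1l1 had no read pair at E18 or in P5 type 1, nor had Gfap at E18 and Aldoc in P5 type 1. The 7 markers of the oligodendrocyte lineage summed to 12.8 RPM at E18 (8 of 82 cells, 0 to 563 RPM), 57.7 RPM in P5 type 1 (4 of 34, 0.0723 to 1331 RPM) and 141.1 RPM in P5 type 2 (2 of 19, 0 to 3175 RPM), and to at most 23.4 RPM in the other groups. Sox10 and Cspg4 had no read pair at E18. The 6 excitatory neuron markers summed to 134.2 RPM at E18, with 3 of 6 above 10 RPM in the pool, 16 of 82 cells with any above 10 RPM and 0 to 1739 RPM over cells. They summed to 0.956 RPM in P5 type 1 (0 to 15.3 RPM over cells) and 1.24 RPM in P5 type 3 (0 to 6.06 RPM), in both of which Slc17a7 and Emx1 had no read pair, while none of the 6 was at 0 at E18. In P5 type 2 the sum was 7.24 RPM, and in P2 types 1, 2 and 3 it was 19.7, 31.8 and 0.372 RPM. The part of such cells in the levels of the 4 genes was not tested.

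**Figure D2:**
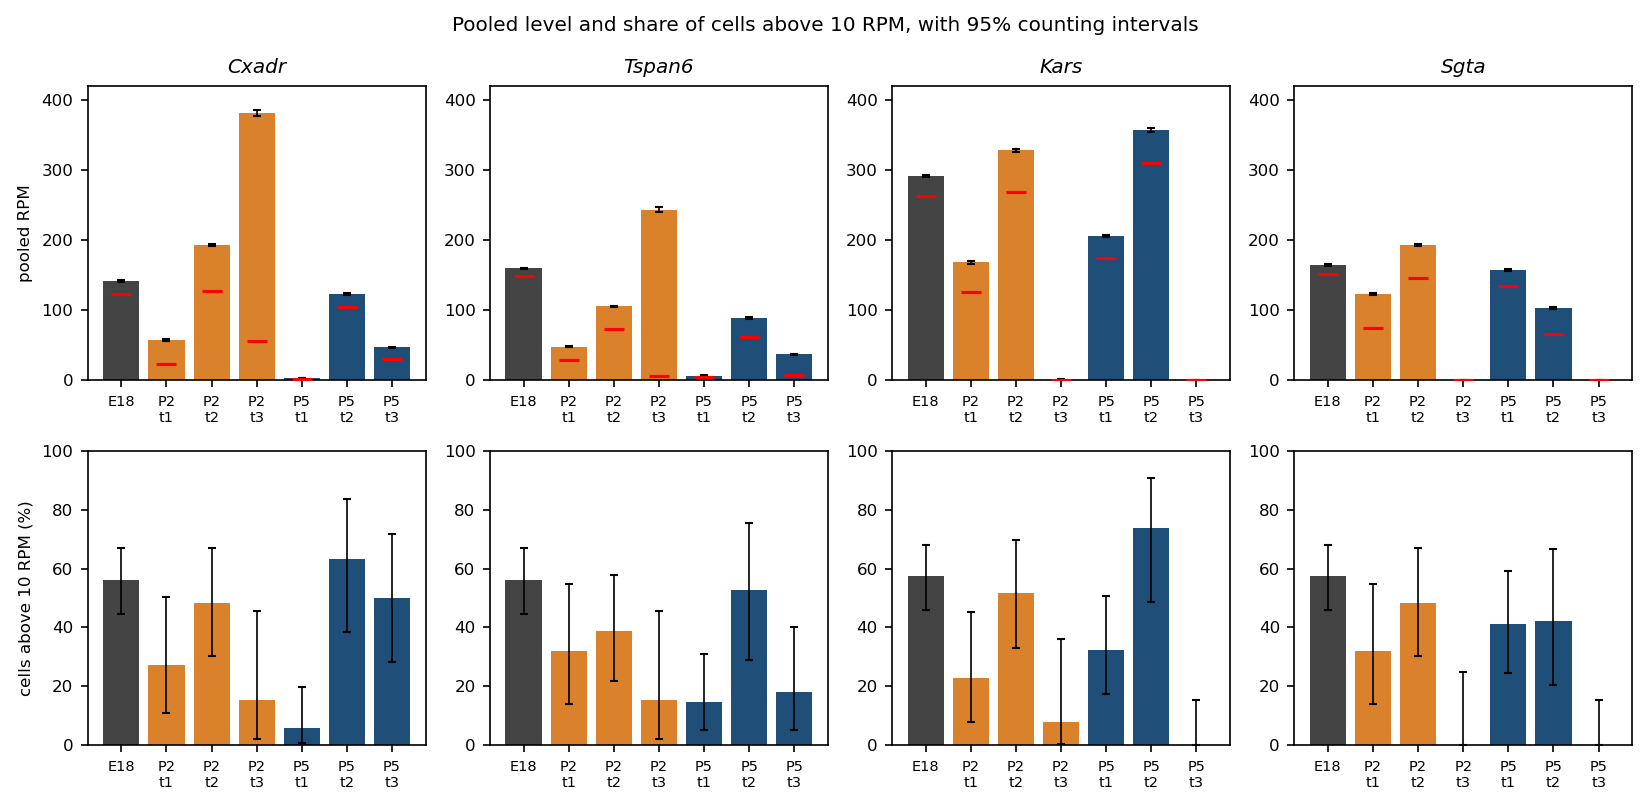
Pooled RPM (upper panels) and percentage of cells above 10 RPM (lower panels) of each gene in each group, with t1, t2 and t3 for types 1, 2 and 3. Black bars are exact 95% intervals for counting error, and red dashes are pooled RPM without the highest cell, which takes Cxadr in P2 type 3 from 382 to 55.95 RPM and Tspan6 from 243 to 5.70 RPM.

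Tspan6 had much the same order of levels. At E18 it was at 159.8 RPM (158.9 to 160.7), with a median cell of 26.2 RPM, a highest cell of 797 RPM and 46 of 82 cells (56.1%, 44.7 to 67) above 10 RPM. In P5 type 1 it was at 6.20 RPM (5.94 to 6.47), with a median cell at 0 and 5 of 34 cells (14.7%, 4.95 to 31.1) above 10 RPM, the highest at 86.3 RPM, without which the level was 3.75 RPM. The highest P5 type 1 cell was thus below the median of the E18 cells that expressed the gene, 242 RPM. The log2 ratio to E18 was -4.48.

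P2 type 1 again lay between, at 47.5 RPM, with a median cell of 0.0411 RPM, a highest cell of 429 RPM and 7 of 22 cells (31.8%, 13.9 to 54.9) above 10 RPM. Without the highest cell the level was 28.9 RPM. From P2 to P5 the level in type 1 fell by 2.75 on the log2 scale. In type 2 it was 105.03 RPM at P2, with a median cell of 1.94 RPM, a highest cell of 1326 RPM and 12 of 31 cells above 10 RPM. At P5 it was 88.3 RPM, with a median cell of 13.1 RPM, a highest cell of 563 RPM and 10 of 19 cells above 10 RPM. Both type 2 levels were below the span of the 3 E18 sets, 151.7 to 199.6 RPM.

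Type 3 cells mostly lacked Tspan6, and its pooled levels there rested on single cells. P2 type 3 had 243 RPM, but the median cell was at 0, and 2 of 13 cells were above 10 RPM, at 5348 and 55.8 RPM. The cell at 5348 RPM held 97.8% of the read pairs, and without it the level was 5.70 RPM. P5 type 3 had 36.7 RPM, a log2 ratio to E18 of -2.09 (-1.32 to -1.53 under other scalings, and -2 or lower under 7 of 15 alternatives), with a median cell at 0 and 4 of 22 cells (18.2%, 5.19 to 40.3) above 10 RPM. A cell at 844 RPM held 81.3% of its read pairs, and without it the level was 7.11 RPM.

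Kars was at or near 0 in type 3 and was found in every other group. At E18 it was at 291 RPM (290 to 293), with a median cell of 106.9 RPM, a highest cell of 3062 RPM and 47 of 82 cells (57.3%, 45.9 to 68.2) above 10 RPM. In P5 type 3 it was at 0.150 RPM (0.0978 to 0.219), which is 26 read pairs over 22 cells. Of these cells 15 had no read pair and the highest was at 2.11 RPM, so none was above 10 RPM, and 0 of 22 cells allows a share of up to 13.6% by the limit of 3 cells used for a count of 0 (15.4% by the exact interval). The log2 ratio to E18 was -7.99.

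The same held in P2 type 3, whose cells did not enter the choice of Kars. There the level was 0.708 RPM (0.539 to 0.913), from 59 read pairs over 13 cells. The median cell was at 0.131 RPM and 1 of 13 cells (7.69%, 0.195 to 36) was above 10 RPM, at 11.0 RPM, with 74.6% of the read pairs. Without it the level was 0.189 RPM. Its log2 ratio to the other types of P2, which were at 261 RPM together, was -7.26, and 0.201% of the 7953 genes that reached 10 RPM over all cells were as low or lower. These genes are the ones called tested below. The types were clusters made from expression in these cells, so a difference between types is given as a description.

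In types 1 and 2 Kars had pooled levels between 167.9 and 357 RPM. In P5 type 1 the level was 206.03 RPM, with a median cell of 0.235 RPM, a highest cell of 1481 RPM and 11 of 34 cells (32.4%, 17.4 to 50.5) above 10 RPM. In P5 type 2 it was 357 RPM, with a median cell of 106.6 RPM, a highest cell of 1292 RPM and 14 of 19 cells (73.7%, 48.8 to 90.9) above 10 RPM. The share of cells was thus lower in P5 type 1 than at E18, while the P5 type 1 level was within the span of the 3 E18 sets, 152.7 to 352 RPM. P2 type 1 had 167.9 RPM, with a median cell of 0.107 RPM, a highest cell of 1026 RPM and 5 of 22 cells above 10 RPM. P2 type 2 had 328 RPM, with a median cell of 91.8 RPM, a highest cell of 2230 RPM and 16 of 31 cells above 10 RPM.

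Sgta had the same pattern with still fewer read pairs in type 3. At E18 its level was 164.3 RPM (163.4 to 165.2), with a median cell of 16.1 RPM, a highest cell of 1474 RPM and 47 of 82 cells (57.3%, 45.9 to 68.2) above 10 RPM. In P5 type 3, 4 read pairs were counted over 22 cells, 1 in each of 4 cells, which is 0.0230 RPM (0.00627 to 0.0590). The highest cell was at 0.185 RPM, and 0 of 22 cells allows the same share as for Kars. The log2 ratio to E18 was -7.34.

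P2 type 3, not used in choosing Sgta, had 5 read pairs over 13 cells, which is 0.0600 RPM (0.0195 to 0.140). Of these cells 11 had none, the highest was at 0.466 RPM, and 0 of 13 cells allows a share of up to 23.1% by the limit of 3 cells (24.7% by the exact interval). The other types of P2 were at 163.6 RPM together, and the log2 ratio of type 3 to them was -7.28, a value reached by 0.189% of tested genes. At P5 the log2 ratio of type 3 to the other types was -7.09 for Sgta and -7.82 for Kars.

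Among the remaining groups Sgta was above 10 RPM in between 31.8% and 48.4% of cells. P5 type 1 had 157.2 RPM, with a median cell of 0.117 RPM, a highest cell of 1129 RPM and 14 of 34 cells (41.2%, 24.6 to 59.3) above 10 RPM. P5 type 2 had 103.4 RPM, with a median cell of 8.40 RPM, a highest cell of 825 RPM and 8 of 19 cells (42.1%, 20.3 to 66.5) above 10 RPM. P2 type 1 had 122.7 RPM, with a median cell of 0.460 RPM, a highest cell of 1116 RPM and 7 of 22 cells above 10 RPM. P2 type 2 had 193.4 RPM, with a median cell of 6.51 RPM, a highest cell of 2049 RPM and 15 of 31 cells above 10 RPM. All 4 levels were within the span of the E18 sets, 51.9 to 218.3 RPM, whose lower end is 9 cells with 57.4% of the read pairs in 1 (25.5 RPM without it). Without the highest cell Sgta was at 74.8 RPM in P2 type 1 and 65.9 RPM in P5 type 2.

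Kars and Sgta were near 0 in type 3 cells with a low share of mapped pairs on genes and in those without it. In the 10 P2 type 3 cells with at least 40% on genes Kars was at 0.869 RPM and Sgta at 0.0457 RPM. In the 3 such P5 type 3 cells they were at 0.283 and 0.0471 RPM. Under 40% they were at 0.112 and 0.112 RPM in 3 P2 type 3 cells and at 0.131 and 0.0197 RPM in 19 P5 type 3 cells. Cells under 40% were few in the other groups, 2 each at E18 and in P2 types 1 and 2. Kars was at 86.5, 16.2 and 0 RPM in them and at 0.171 and 7.30 RPM in the lower E18 and P2 type 1 cell. Sgta was at 0.204, 398 and 195.3 RPM, with 98.3% and 99.9% of the P2 read pairs in 1 cell, and at 13.2 and 0.274 RPM in the lower P2 cells. Either gene was thus near 0 in some of these cells and well above 10 RPM in others, and the part of library quality was not tested. Total counts on genes as the library size, in place of mapped pairs, gave log2 ratios of -8.42 for Kars and -8.03 for Sgta in P5 type 3. Of 12 broadly expressed genes 8 were also at a log2 ratio of -2 or lower there, among them Gapdh, a glycolytic enzyme, from 139.3 to 3.76 RPM, and Rplp0, a ribosomal protein, from 357 to 20.9 RPM. Actb, cytoplasmic actin, went from 6198 to 2051 RPM. None of the 12 was that low in P5 type 1. Of the same 12, 7 were at -2 or lower in P2 type 3, with a median of -2.23, and Gapdh was at 0.108 RPM there (-6.98).

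Among these 7953 genes, which include all 4 members, a log2 ratio to E18 of -2 or lower was common in type 3. A ratio that low was held at P2 by 24.9% of genes in type 1, 12.2% in type 2 and 49.6% in type 3. Of the 4 members 0, 0 and 2 had such a ratio in P2 types 1, 2 and 3. The 2 were Kars at -7.42 and Sgta at -7.28, a count close to the share over all genes, while 0.251% and 0.302% of genes were as low as each. At P5 the share over all genes was 14.0% in type 1, 13.5% in type 2 and 34.5% in type 3. The members there were 2 in type 1 (Cxadr and Tspan6), 0 in type 2 and 3 in type 3 (Tspan6, Kars and Sgta), or 2 under each of 3 other scalings, where Tspan6 was above -2. Nothing is read from the P5 counts of types 1 and 3, since these contrasts chose the genes. The median log2 ratio over all genes was -0.25 in P5 type 1, -0.20 in P5 type 2, -1.16 in P5 type 3 and -1.95 in P2 type 3. All 6 comparisons share the E18 cells.

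The choice can be seen from the genes next to the members in the order of falls, over the 1331 genes above 10 RPM in at least 50% of E18 cells. For P5 type 1, Sst, the neuropeptide somatostatin, came before them at -8.38, and Mpped1 at -3.995 and Mmp16, a membrane metalloproteinase, at -3.83 came after. For P5 type 3, Sst at -8.17 came first, and Gpbp1 at -7.13 and Copz1, a coat protein of Golgi vesicles, at -6.93 followed the pair. Sst marks MGE INs, whose 5 markers summed to 736 RPM at E18, with 4 of 5 above 10 RPM in the pool and a range of 0.201 to 3603 RPM over cells. They summed to 54.2 RPM in P5 type 1 (0 to 728 RPM over cells) and 7.88 RPM in P5 type 3 (0.554 to 92.3 RPM), with none at 0 in a pool. Satb1 alone was at 48.1 RPM in P5 type 1 and 5.26 RPM in P5 type 3. Against the 20 E18 cells with neither Lhx6 nor Sst above 10 RPM, the log2 ratios were -5.65 for Cxadr, -4.75 for Tspan6, -7.08 for Kars and -8.04 for Sgta, a subset of the values that chose the genes. Kars itself was higher in E18 cells with Lhx6 or Sst, at 334 RPM with 41 of 62 cells above 10 RPM, than in the 20 without, at 154.1 RPM with 6 cells. The pooled level of Sgta was lower, at 132.2 against 267 RPM. Its share of cells above 10 RPM was much the same, 36 of 62 (58.1%) against 11 of 20 (55%). The part of MGE cells in the falls was not tested.

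The falls were also computed against E18 cells that expressed a gene used as a marker of the postnatal type. In the 11 E18 cells above 10 RPM for Meis2, a homeobox gene used as a marker of type 1, Cxadr was at 61.6 RPM and Tspan6 at 174.97 RPM, with log2 ratios of -4.04 and -4.61 for P5 type 1 against these cells. One cell at 395 RPM held 63.5% of these Cxadr read pairs, and without it the level was 24.9 RPM. In the 25 E18 cells above 10 RPM for Nr2f2, which encodes COUPTFII and is enriched in type 3, Kars was at 197.9 RPM and Sgta at 146.03 RPM. P5 type 3 against these cells gave -7.43 and -7.17. These comparisons were chosen after the data were seen.

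**Figure D3:**
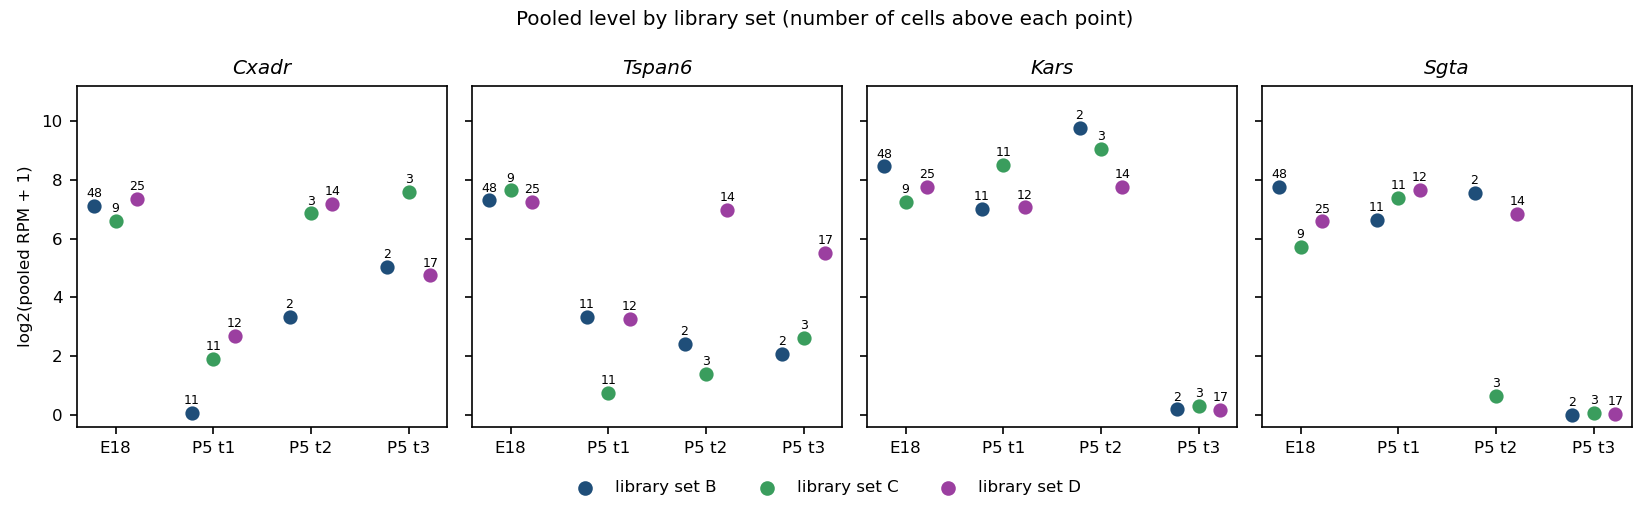
Pooled level, as log2(pooled RPM + 1), in each library set at E18 and in the P5 types (t1, t2, t3), with the number of cells above each point. In all 3 sets Cxadr and Tspan6 were lower in P5 type 1 than at E18, and Kars and Sgta were near 0 in P5 type 3. The sets split the cells whose values chose the genes.

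Taken separately by library set, each of the 4 falls was found in all 3 sets shared by E18 and P5. The sets are parts of the values that chose the genes, so this is a description and no independent repeat. Cxadr went from 137.4 to 0.0540 RPM in set B, from 96.3 to 2.75 RPM in set C and from 163.8 to 5.401 RPM in set D, and the 2 expressing P5 type 1 cells were in sets C and D. Tspan6 went from 157.3 to 9.17 RPM in set B, from 199.6 to 0.671 RPM in set C and from 151.7 to 8.63 RPM in set D. Without the highest cell of each P5 type 1 set Cxadr was at most at 1.80 RPM and Tspan6 at 4.70 RPM. The log2 ratios within a set ran from -7.04 to -4.69 for Cxadr and from -6.91 to -3.96 for Tspan6. For P5 type 3, Kars went from 352 to 0.138 RPM in set B, from 152.7 to 0.240 RPM in set C and from 218.4 to 0.137 RPM in set D. Sgta went from 218.3 RPM to no read pair in set B, from 51.9 to 0.0479 RPM in set C and from 95.4 to 0.0217 RPM in set D. Of the 22 P5 type 3 cells 17 were in set D, 3 in set C and 2 in set B, so the values of sets B and C rest on few cells.

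Other ratios were less even between sets. In P5 type 2, Tspan6 was at 124.97 RPM in the 14 cells of set D, at 1.65 RPM in the 3 cells of set C and at 4.40 RPM in the 2 cells of set B. Sgta in P5 type 2 was at 113.2 RPM in set D, 186.5 RPM in set B and 0.570 RPM in set C. For both genes all set B read pairs were in 1 of the 2 cells. Cxadr in P5 type 3 was at 193.9 RPM in set C, against 96.3 RPM at E18 (50.9 RPM without its highest cell), but 1 of these 3 cells held 77.6% of the read pairs, and without it the level was 59.9 RPM. In sets B and D it was at 32.1 and 25.96 RPM. Kars in P5 type 1 was at 362 RPM in set C, above E18 (243 RPM without its highest cell), and at 127.4 and 133.02 RPM in sets B and D, below E18 (22.7 and 30.97 RPM without the highest cell of each).

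In each of the 6 pairs, both genes were above 10 RPM in somewhat more E18 cells than independent shares would give. Other gene pairs were not counted, so this cannot be called a trait of the members. E18 cells had 980 to 4886 genes above 10 RPM. Cxadr and Tspan6 were above 10 RPM together in 28 of 82 cells, against 25.8, and Kars and Sgta in 29 cells, against 26.9. Tspan6 and Kars shared 32 cells, Cxadr and Sgta 31, Cxadr and Kars 30 and Tspan6 and Sgta 30, each against 26.4. All 4 were above 10 RPM in 15 E18 cells, 3 in 24, 2 in 18, 1 in 18 and none in 7. Spearman's rho over the 82 E18 cells was 0.17 for Cxadr with Tspan6 and 0.05 for Kars with Sgta. These cells came from pooled embryos, from library sets B, C and D, and had 5246678 to 14587175 mapped pairs. With the number of genes above 10 RPM per cell, rho was 0.21 for Cxadr, 0.32 for Tspan6, 0.24 for Kars and 0.07 for Sgta. In P5 type 1 no cell had both Cxadr and Tspan6 above 10 RPM. In P5 type 3, 8 of 22 cells had none of the 4 genes above 10 RPM, 13 had 1 and 1 had 2, and that cell held Cxadr with Tspan6. In P2 type 3 the cell with the highest Cxadr level had Tspan6 at 55.8 RPM, and the cell with the highest Tspan6 level had Cxadr at 0.270 RPM.

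Over the 7 groups, the genes most like each member were ranked by Pearson's r of log2(pooled RPM + 1) among 7953 genes. For Cxadr they were Tspan6 (0.982), Syngr3 (0.979), Akap7 (0.978), Rfc1 (0.973) and Elavl4 (0.971), and for Tspan6 they were Syngr3 (0.987), Cxadr (0.982), Akap7 (0.960), Rfc1 (0.953) and Herc3 (0.953). Syngr3, a synaptic vesicle protein, was at 78.5 RPM at E18, 0.748 RPM in P5 type 1 and 54.7 RPM in P5 type 2. Across all genes 19 had r above 0.9 with Cxadr and 17 with Tspan6. For Kars the 5 were Dnajc14 (0.998), Topors (0.995), Atp5e (0.995), Eef1a1 (0.994) and Ctsd (0.994). Those of Sgta included Mien1 (0.999), Plrg1 (0.998), Dnajc18 (0.996) and Crkl (0.996). Here 500 genes (6.29%) had r above 0.9 with Kars and 541 (6.80%) with Sgta, so this pattern was widespread, and Eef1a1, a translation elongation factor, went from 1614 RPM at E18 to 224 RPM in P2 type 3 and 172.4 RPM in P5 type 3. Kars and Sgta had r of 0.991 with each other, Kars and Cxadr -0.19. Members chosen for the same fall share that fall by choice, which enters these values of r. The groups also share pools of animals and library sets, and r over 7 points is a description.

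**Figure D4:**
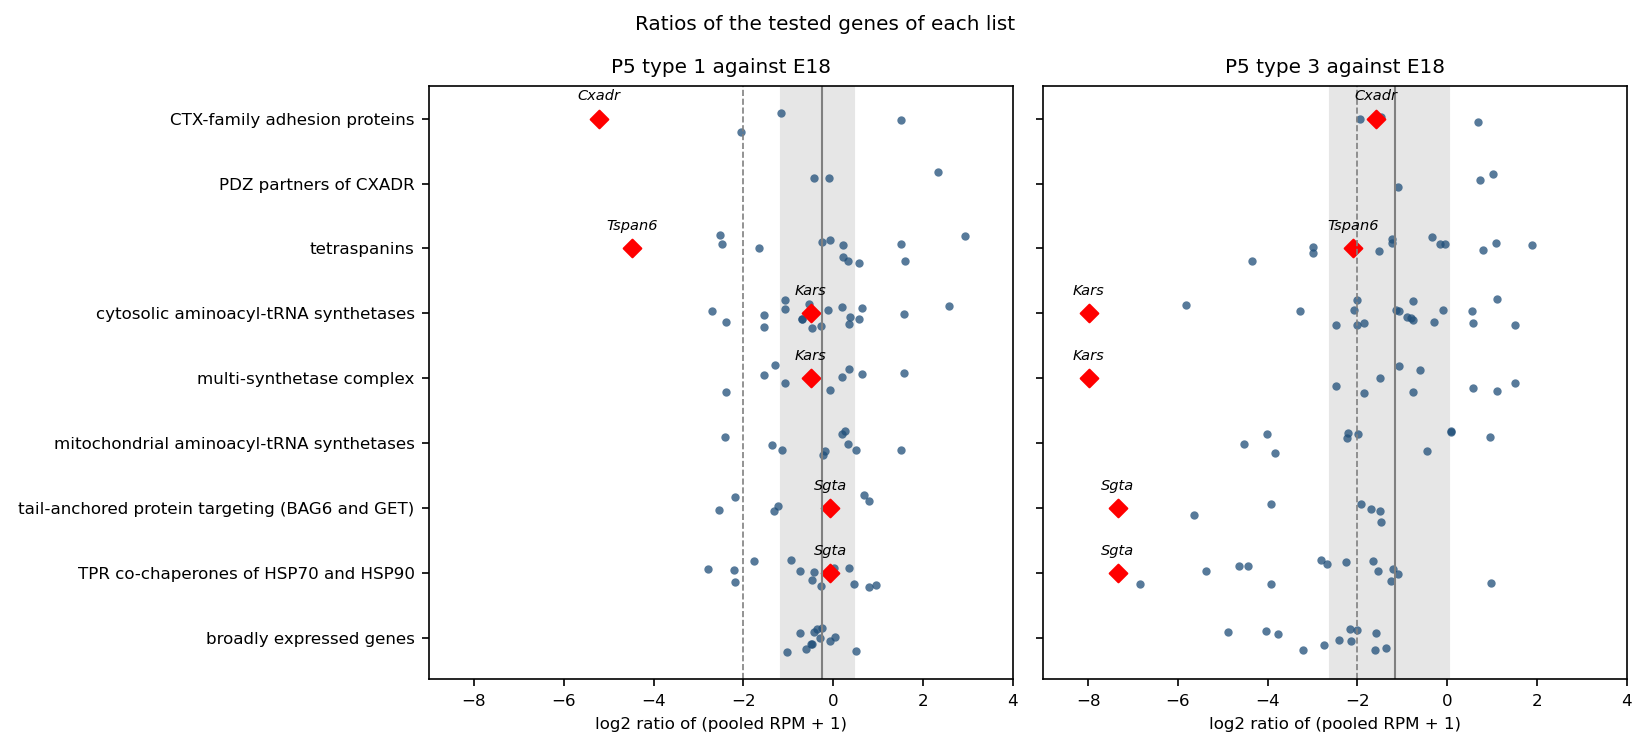
Log2 ratio of pooled RPM (1 RPM added) to E18 for the genes of each list that reached 10 RPM over all cells, in P5 type 1 (left) and P5 type 3 (right). Red diamonds are the members, the grey line and band are the median and quartiles of all 7953 genes, and the dashed line marks -2. Cxadr and Tspan6 lie left of most of their families in the type 1 panel, as do Sgta and Kars in the type 3 panel.

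Counts over a list stand beside the 14.0% (P5 type 1) and 34.5% (P5 type 3) of all tested genes at -2 or lower. A count with a member holds it by choice in the contrast that picked it, and is therefore also given without it. The adhesion family of Cxadr gave few measured genes. Of 11 genes of the CTX and JAM families 4 reached 10 RPM over all cells. Cxadr and Clmp, an adhesion protein close to it in sequence, were at -2 or lower in P5 type 1, Clmp at -2.04 (51.02 to 11.6 RPM). Jam2 was at -1.15 and Jam3 at 1.52 (21.7 to 64.2 RPM), both junctional adhesion molecules. Without Cxadr the count was 1 of 3 and the median -1.15. Among 7 proteins with PDZ domains that bind the tail of CXADR, 3 were tested and none was at -2 or lower in P5 type 1. Magi1, a scaffold, was at -0.43, Tjp1, which encodes ZO-1, at -0.09, and Mpdz, which encodes MUPP1, at 2.33 (5.28 to 30.6 RPM).

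Of 31 tetraspanins 13 were tested. At -2 or lower in P5 type 1 were 3 of 13, or 2 of 12 without Tspan6, against 14.0% of all tested genes, namely Tspan6, Tspan31 at -2.51 (66.1 to 10.8 RPM) and Tspan12, a partner of the Frizzled receptor in Norrin signalling, at -2.48 (42.3 to 6.74 RPM). One was at 2 or higher, Tspan9 at 2.94 (6.96 to 59.9 RPM). Cd9, a tetraspanin of exosomes and glia, was at 1.59 and Tspan11 at 1.52. Their median was 0.23 with Tspan6 and 0.23 without it, against -0.25 over all genes. The same count was 4 of 13 in P5 type 3, Tspan6 included, and 3 of 12 without it, against 34.5% of all tested genes.

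Kars was chosen for its ratio in P5 type 3, so its place among the synthetases there follows from the choice. Of the 20 cytosolic aminoacyl-tRNA synthetases 6 were at -2 or lower and none at 2 or higher in P5 type 3, and without Kars 5 of 19, with a median of -0.90 against -1.16 over all genes. Yars, the tyrosine enzyme, was at -3.28 (112.7 to 10.7 RPM), and Tars, the threonine enzyme, went from 55.4 RPM to no read pair. Qars at 1.51 (46.6 to 134.2 RPM), Lars at 1.11 and Rars at 0.57, the glutamine, leucine and arginine enzymes, had the highest ratios. All 3 of these are partners of KARS in the multi-synthetase complex, in which 2 of 10 tested genes were at -2 or lower (1 of 9 without Kars), Kars and Dars at -2.48 (36.8 to 5.77 RPM). Mars, the methionine enzyme, was at -1.84. The complex had 1 of 10 at -2 or lower in P5 type 1, and that was not Kars, at -0.50.

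The mitochondrial synthetases were tested for 10 of 17 genes. At -2 or lower in P5 type 3 were 5 of 10, against 34.5% of all tested genes, with a median of -2.10 against -1.16. Fars2 was at -4.02 (16.0 to 0.0461 RPM) and Mars2 at -3.84 (18.1 to 0.334 RPM). Iars2 at 0.96, Wars2 at 0.10 and Nars2 at 0.09 had the highest ratios. For P5 type 1 the count was 1 of 10.

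Around Sgta, 7 of 9 genes of tail-anchored protein targeting were tested. In P5 type 3, 3 of 7 were at -2 or lower: Sgta, Ubl4a at -5.64 (49.1 to 0.00576 RPM) and Sgtb, the neuronal paralogue, at -3.91 (14.2 to 0.00576 RPM). Each of the last 2 rested on 1 read pair in P5 type 3, and the ratio depends on the added RPM. UBL4A binds SGTA directly in the BAG6 complex. The other members of that complex, Bag6 at -1.47 and Get4 at -1.69, and Caml, a receptor in the endoplasmic reticulum, at -1.49, were not. Without Sgta the count was 2 of 6 and the median -1.80, against -1.16 over all genes.

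Among co-chaperones with tetratricopeptide repeats, 15 of 16 were tested, and 9 were at -2 or lower in P5 type 3, Sgta included. Stip1, which encodes HOP and links HSP70 to HSP90, was at -6.84 (117.05 to 0.0288 RPM). Fkbp4 at -1.21, Dnajc7 at -1.10 and Tomm34 at 0.98 had the highest ratios. Without Sgta the count was 8 of 14 and the median -2.46, below the -1.16 over all genes and near the -2.29 of the 12 broadly expressed genes. For P5 type 1 the count was 3 of 15.

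Neighbours on the chromosome were listed because read pairs of overlapping genes can be assigned to either, and whether counting used strand is not stated. Btg3 overlaps Cxadr on the other strand over 695 of the 7400 exon bases of Cxadr (9.39%), and was at most 10.4 RPM in a group (P2 type 3). Terf2ip, a telomere protein gene, starts 74 bases from Kars in the opposite direction and was at 35.9 RPM at E18, 29.0 RPM in P2 type 3 and 7.86 RPM in P5 type 3, so it kept read pairs where Kars was near 0. On the other side Adat1 was at 9.21 RPM at E18, 0.564 RPM in P2 type 3 and 4.10 RPM in P5 type 3. Slc39a3, a zinc transporter, and Thop1, a peptidase, flank Sgta at 10.8 and 5.21 RPM at E18 and 4.27 and 20.1 RPM in P5 type 3. In P2 type 3 Slc39a3 was at 0.0240 RPM and Thop1 had no read pair. Tnmd and 4930570D08Rik, next to Tspan6, had no read pair in any group. One other transcript was alike in sequence to Kars, Gm8428, with 87.5% identity over 1812 bases, at 0.441 RPM at E18 and without read pairs elsewhere.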

How the data were processed

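Single GFP+ cells were captured on a C1 system, and their cDNA (SMARTer) was sequenced from Nextera XT libraries as read pairs. Per the methods, the authors used TopHat for alignment to GRCm38 and HTSeq 0.6.1 for counting over Ensembl genes, and kept cells by depth, mapped share, mitochondrial share and GFP reads. They deposited raw counts of read pairs, with no normalization and no molecular identifiers, and a coefficient per cell that turns counts into RPM, per 1000000 mapped pairs. Total counts on genes ranged from 1596087 to 11692823 per cell. No column of cells was left out.

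RPM, pooled RPM, log2 ratios with a pseudocount of 1 RPM, shares above 10 RPM and exact 95% intervals were computed in Python 3.11.15 (with scipy 1.17.1, numpy 2.4.6 and pandas 2.3.3), and the ratio code was tested on simulated data. Where no cell was above 10 RPM, 3 cells of the group set the upper limit. Symbols came from GENCODE on GRCm38, which names 42548 of the identifiers. Named beside the members were the genes next to them in the order of falls, the 5 most like each over 7 groups, the 3 lowest and 3 highest of each list in the P5 type tied to it, and chromosome neighbours. Some genes that this rule names are not reported here. The members and lists were chosen with earlier results of these data known. Doublets were not called. Alternatives changed the pseudocount, the library size (counts on genes, TMM factors of edgeR 4.0.16, size factors of DESeq2 1.42.0), the weighting of cells, depth, the highest cells, the library set, the E18 cells, the threshold and the gene filter. No test was made, since each group counts as 1 sample.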

Additional observations from a re-analysis of the deposited data

Results flagged for a closer look

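Between P2 and P5 the pooled level of Kars moved in opposite directions in different types, by log2 ratios of 0.29 in type 1, 0.12 in type 2 and -0.57 in type 3, where both levels were under 1 RPM. In type 3, 1 P2 cell at 11.0 RPM held 74.6% of the read pairs. Without it P2 was at 0.189 RPM, against 0.150 RPM at P5. The difference was not tested. For Sgta the log2 ratios of P5 to P2 were 0.36 in type 1, -0.90 in type 2 and -0.051 in type 3, where 5 and 4 read pairs were counted, and this difference was not tested either. All P2 cells were of library set A and no P5 cell was, so the set and the age cannot be told apart in these values.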

How the results depend on the processing

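All values here are log2 ratios of pooled RPM, in the order Cxadr and Tspan6 (P5 type 1 to E18), Kars and Sgta (P5 type 3 to E18). A gene left out moved by less than its interval, except that the Meis2 and Nr2f2 alternatives were run only for the genes named with them. With 0.1 RPM added they were -5.60, -4.67, -10.19 and -10.38, and with 10 RPM -3.56, -3.39, -4.89 and -4.12. Total counts on genes gave -5.30, -8.42 and -8.03 for Cxadr, Kars and Sgta, TMM factors gave -5.14, -4.31, -8.39 and -7.91, and DESeq2 size factors gave -4.89, -4.14, -7.66 and -7.05. These 3 scalings moved the median of all genes by 0.73, 0.53 and 0.61 in P5 type 3 and by 0.09, 0.25 and 0.35 in P5 type 1. Relative to that median, Kars was at -7.99, -7.75 and -7.11 and Sgta at -7.60, -7.28 and -6.50. Equal weight per cell gave -5.05, -4.39 and -7.26 for Cxadr, Tspan6 and Sgta, thinned cells gave -5.02, -4.40 and -7.25, and the mean of log2 over cells gave -3.61, -3.39, -4.81 and -4.19. Without the highest E18 cell they were -5.01, -4.38, -7.84 and -7.22, and without the highest P5 cell -5.81, -5.08 and -8.08 for Cxadr, Tspan6 and Kars. Set B alone gave -7.04, -3.96, -8.28 and -7.78, set C -4.70, -6.91, -6.95 and -5.66, and set D -4.69, -3.99, -7.59 and -6.56. Without E18 cells above 10 RPM for Lhx6 or Sst they were -5.65, -4.75, -7.08 and -8.04. Alternatives chosen after the data were seen gave -4.04 and -4.61 for Cxadr and Tspan6 with Meis2 E18 cells, -7.43 and -7.17 for Kars and Sgta with Nr2f2 E18 cells, and -7.85 for Kars in cells with at least 40% of pairs on genes.

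Each of the 4 ratios stayed at -2 or lower under all 16 alternatives run for it. These alternatives rescale or subset the counts that chose the genes for a large fall, so the count is a description only. The added RPM sets the size of the ratios of Kars and Sgta, since their P5 type 3 levels are far under 1 RPM. In P2 type 3 Kars and Sgta stayed at -2 or lower under all 12 alternatives, while Cxadr ran from -2.18 to 2.73 and Tspan6 from -4.59 to 1.91. Tspan6 in P5 type 3 ran from -5.22 to -1.32, with 7 of 15 alternatives at -2 or lower. Over the 14064 genes at 1 RPM or more, 3468 (24.7%), 1974 (14.04%) and 5826 (41.4%) were at -2 or lower in P2 types 1, 2 and 3, and 2290 (16.3%), 2118 (15.1%) and 4082 (29.02%) in P5 types 1, 2 and 3. Among the 7953 genes, those at -1 or lower were 3176 and 2152 in P2 types 1 and 2 and 2237, 2218 and 4231 in P5 types 1, 2 and 3. P2 cells had no value in sets B, C and D. Outside the 4 falls, the sign of the ratio to E18 turned under at least 1 alternative for Cxadr in P5 type 2 (-3.78 to 0.38) and P5 type 3 (-2.61 to 1.00), Kars in P5 type 1 (-2.07 to 1.24) and Sgta in P5 types 1 (-1.12 to 1.67) and 2 (-5.08 to 0.24), among others. No paired analysis was possible because the labels number single cells and the groups share no replicate number. The values within library sets shared by E18 and P5 are given above. The cause of these shifts was not tested.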
